A study of Mus musculus with 19 samples.

Results

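A list of 37 genes of fatty acid oxidation and of the PPAR transcription factors that control it was followed through the mouse prostate under a high fat diet. The genes were taken by symbol from a given list, which was chosen with earlier results of these data known. Each gene was represented by its probe set with the highest mean over 19 arrays. Of the 37 genes, 34 were found on probe sets annotated with 1 gene symbol, among 18193 genes measured in that way, and all 34 passed the filter on low values that left 11728 genes for testing. Cpt1b, the muscle form of the carnitine transferase, lay on a probe set annotated with several genes, and the probe sets of the uncoupling protein Ucp2 and the acyl-CoA synthetase Acsl1 were not listed with 1 symbol, so these 3 were not analysed here.

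The arrays were Affymetrix 3′ expression arrays of total RNA from whole lobes of C57BL/6J mice. Per the labels, each diet was given to 5 mice, aged 8 weeks at the outset, with free access to a high fat diet (HFD) or a control diet for 12 weeks. The 4 groups were the dorsolateral prostate (DLP) on HFD, with 4 arrays, DLP on control diet, with 5, the ventral prostate (VP) on HFD, with 5, and VP on control diet, with 5. No genetic change separates the groups, and the labels do not tie an array to a mouse, so p-values reflect only how far these arrays vary, which may be technical. With 5 mice on each diet, the DLP and VP arrays of a diet share animals, whereas the tests, those between lobes and over both lobes included, take all 19 arrays as independent.

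Fatty acid oxidation breaks acyl chains into acetyl-CoA. Long chains are taken up and bound in the cell, activated to acyl-CoA by synthetases, carried into mitochondria by the carnitine shuttle and shortened by repeated cycles of dehydrogenation, hydration, a second dehydrogenation and thiolysis, while very long and branched chains are first handled in peroxisomes. The nuclear receptors PPARα and PPARδ are activated by fatty acids and, with the co-activator PGC-1α, raise the transcription of many of these genes, best known from liver, heart and skeletal muscle. The prostate is known for secreting citrate, which other tissues largely oxidise.

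All values below are log2 values on the scale inferred for the deposited table, in which the median of each array was 1.85. Of the 34 members, 32 lay above the median of their array on all 19 arrays. The exceptions were Fabp3, above it on the 9 DLP arrays and 1 VP array, and Pdk4, above it on 16. Levels of different probe sets are not comparable, so no member's level was set against another's. In whole lobes, fewer cells of a type and less RNA per cell cannot be told apart. The luminal epithelial markers measured lay above the array median on all arrays in all groups. Arrays HFD VP 3 and control VP 4 stood apart in earlier work with these data, and the macrophage marker Lyz2 was highest on these 2 arrays, at 7.89 and 6.71. Results that turn on them are given with and without them.

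**Figure D1:**
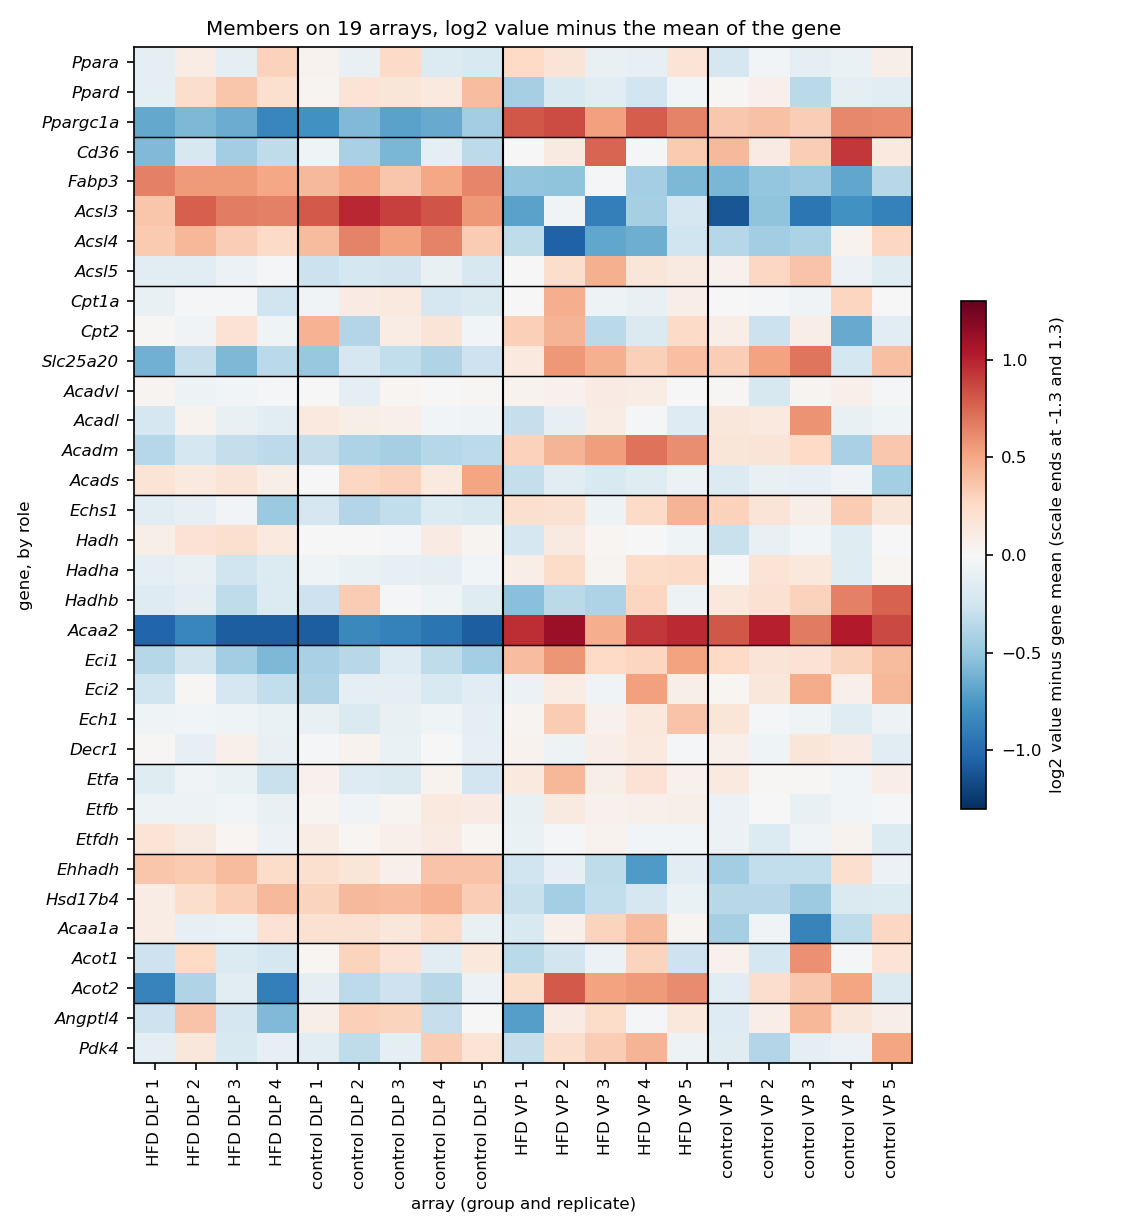
Level of the 34 members on each of the 19 arrays, as log2 value minus the mean of the gene, with genes grouped by role from top to bottom and arrays by group from left to right. Acaa2, Ppargc1a, Slc25a20 and Eci1 are low in the 9 DLP arrays and Acsl3, Fabp3, Hsd17b4 and Ehhadh are high there. Through the brightest probe sets shown, no member separates the diets within a lobe.

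The high fat diet was compared with the control diet within each lobe. In VP the diet moved 1 of the 34 members past the threshold, the trifunctional protein subunit gene Hadhb, which was lower on HFD. In DLP it moved none. Through its brightest probe set, in no member did the arrays of one diet lie wholly apart from those of the other, in either lobe. Further probe sets of Acsl4 and Hadh did lie apart in DLP. They ran from 3.11 to 3.50 on HFD and 3.54 to 4.01 on control diet for Acsl4. For Hadh they ran from 2.38 to 2.64 on HFD and 2.68 to 3.26 on control diet. Neither passed (limma's adjusted p = 0.515 and 0.873 over all probe sets). The background for VP was 1.11% of all genes called (130 of 11728), with 0.58% lower, and 2.58% had groups that did not overlap. For DLP the background was 0% called, since no gene passed, and 3.15% had groups that did not overlap. Calls are limma's Benjamini-Hochberg adjusted p-values over all 11728 genes at a threshold of 0.05. At an unadjusted limma p under 0.05 there were 9 members in VP, against 15.2% of all genes, and 2 in DLP, against 5.64% of all genes. In VP 23 of 34 members had a positive difference, with a median of 0.071, beside 52.2% of all genes and a median of 0.008. In DLP 9 of 34 were positive, with a median of -0.049, beside 53.7% of all genes and a median of 0.01.

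**Figure D2:**
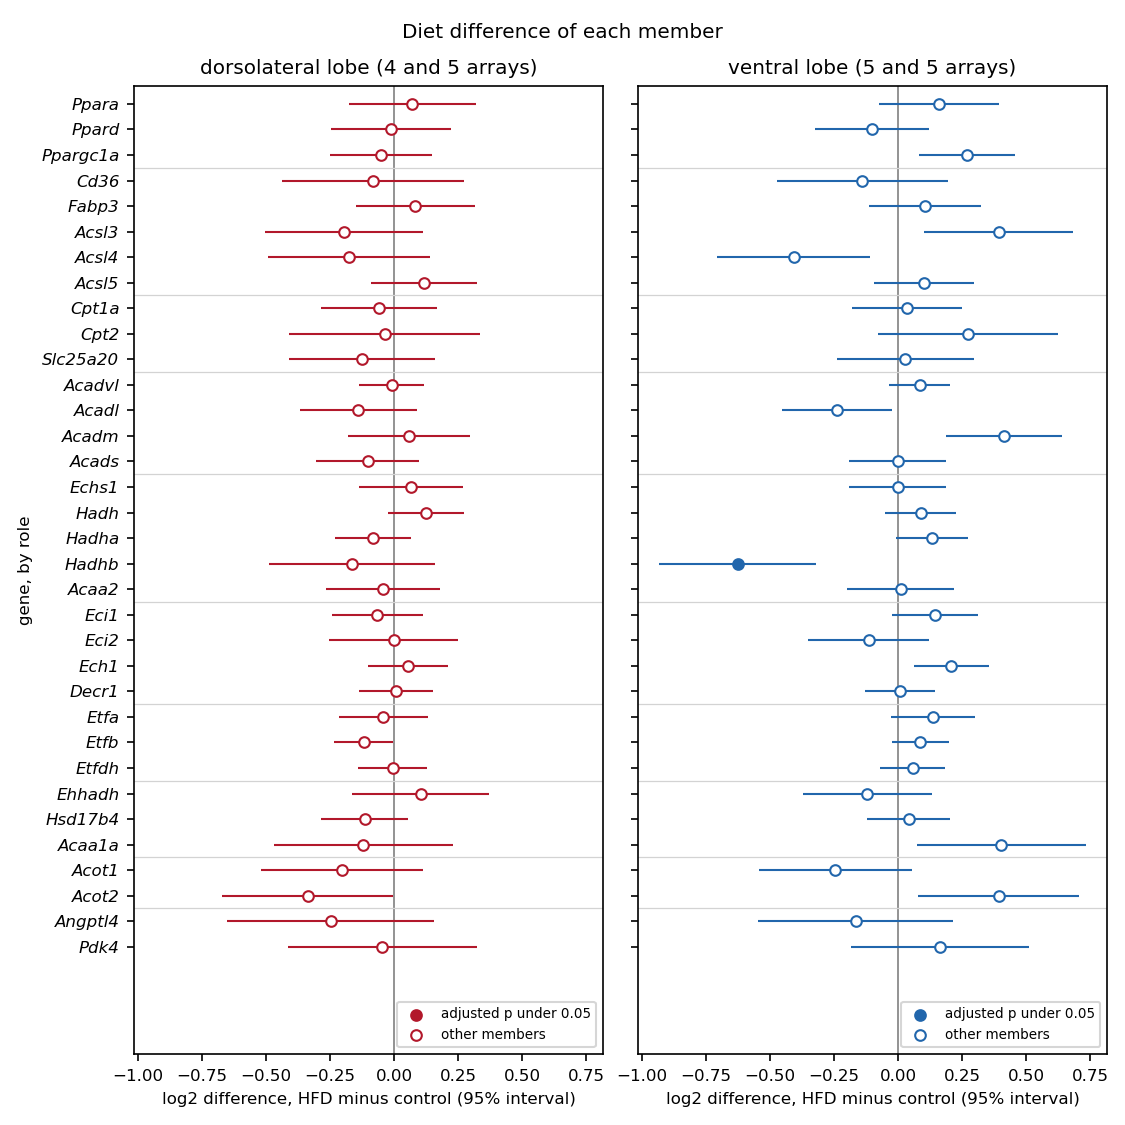
Log2 difference of HFD minus control diet for each member, with limma's 95% interval, in DLP (left) and VP (right). Filled points passed the adjusted threshold. Hadhb in VP, at -0.62, is the single filled point, and the members' differences run from -0.337 to 0.124 in DLP and from -0.625 to 0.414 in VP.

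Among the regulators, Ppara, the receptor of fasting and fat oxidation in liver, had values of 2.24, 2.47, 2.25 and 2.67 in HFD DLP, against 2.42, 2.27, 2.62, 2.19 and 2.17 in control DLP. In VP it had 2.63, 2.54, 2.27, 2.27 and 2.55 on HFD, against 2.15, 2.34, 2.24, 2.28 and 2.45 on control diet. The diet groups overlapped in both lobes, and the differences were 0.07 in DLP (95% interval -0.17 to 0.32) and 0.16 in VP (95% interval -0.07 to 0.39). Ppard, the more widely expressed receptor, had 2.37, 2.72, 2.84 and 2.69 in HFD DLP, against 2.52, 2.67, 2.65, 2.61 and 2.89 in control DLP. In VP Ppard had 2.06, 2.29, 2.36, 2.24 and 2.45 on HFD, against 2.50, 2.56, 2.14, 2.36 and 2.36 on control diet. Its diet groups overlapped too, with differences of -0.01 in DLP (95% interval -0.25 to 0.22) and -0.10 in VP (95% interval -0.32 to 0.12). Ppargc1a, which encodes PGC-1α, had 4.05, 4.09, 3.78, 4.03 and 3.88 in HFD VP, against 3.59, 3.62, 3.56, 3.87 and 3.86 in control VP. The HFD arrays reached higher but overlapped the control arrays. The difference of 0.27 ± 0.09 (SE) did not pass limma's test (adjusted p = 0.147), with a two-sided exact permutation p of 0.032 before any adjustment. In DLP its values were 2.58, 2.66, 2.59 and 2.40 on HFD, against 2.45, 2.67, 2.54, 2.58 and 2.79 on control diet, a difference of -0.05. These values are those of its brightest probe set. The other 4 differed by 0.01 to 0.13 in VP.

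Hadhb encodes the β subunit of the mitochondrial trifunctional protein, which carries the last, thiolase step for long chains. In VP its values were 6.33, 6.53, 6.47, 7.16 and 6.81 on HFD, against 7.01, 7.07, 7.17, 7.53 and 7.64 on control diet. Most HFD arrays lay below all control arrays, but HFD VP 4 fell within their range. The mean was 6.66 ± 0.33 on HFD and 7.29 ± 0.28 on control diet (SD, n = 5 each), a difference of -0.62 (95% interval -0.93 to -0.32) or 1.54-fold lower. Limma's adjusted p was 0.0432, and the two-sided exact permutation p was 0.024, where 5 against 5 arrays can give no less than 0.0079. In DLP the values were 6.71, 6.75, 6.55 and 6.70 on HFD, against 6.61, 7.20, 6.85, 6.82 and 6.72 on control diet, a difference of -0.16 (95% interval -0.49 to 0.16). The diet changes of the lobes differed by 0.46, which did not pass (limma's adjusted p = 0.576).

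The Hadhb call rested on 1 of its 3 probe sets. That probe set carries the suffix x, the manufacturer's mark for probes that may match other transcripts as well. The second probe set, without the mark, had a mean of 7.05 ± 0.06 in HFD VP and 7.02 ± 0.09 in control VP (SD, n = 5 each), a difference of 0.04. The third had 2.51 ± 0.14 in HFD VP and 2.38 ± 0.24 in control VP, a difference of 0.13. Neither passed limma's test (adjusted p = 0.832 and 0.649 over all probe sets). Leaving out 1 array at a time kept the difference between -0.75 and -0.54, and the call was lost in 14 of 19 such fits (limma's adjusted p from 0.0143 to 0.0922). Without HFD VP 3 and control VP 4 together no member was called in VP.

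**Figure D3:**
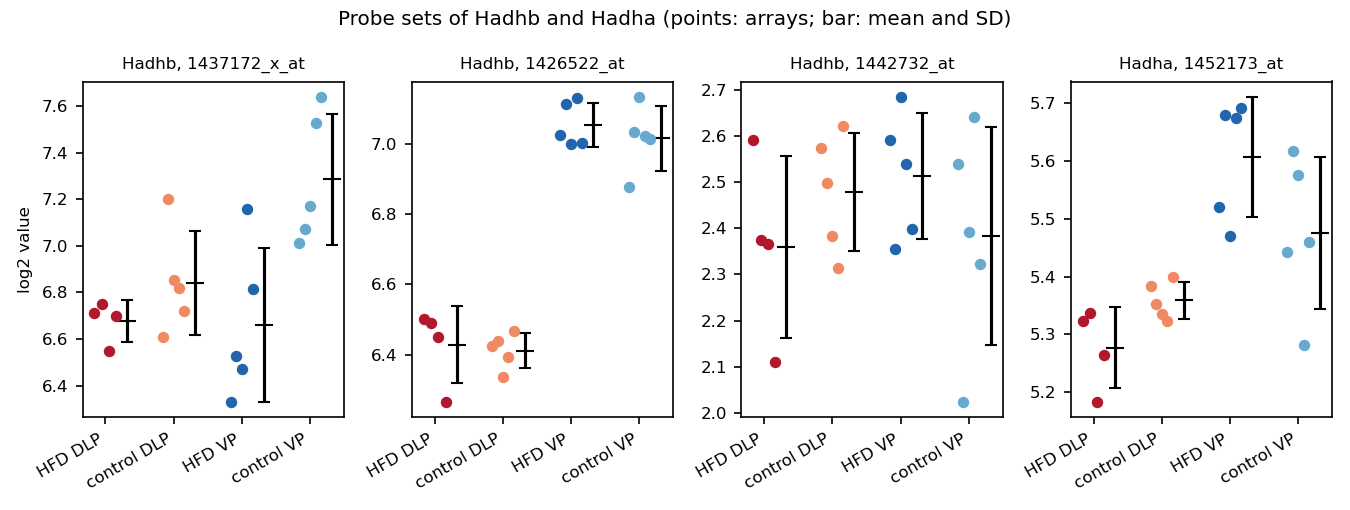
Log2 values of the 3 Hadhb probe sets and of the Hadha probe set on each array, by group, with the mean and SD. The first panel shows HFD VP below control VP (means 6.66 and 7.29), the second shows the VP groups together (7.05 and 7.02) above both DLP groups (6.43 and 6.41), and the third shows all groups overlapping.

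Hadha, the gene of the α subunit, which holds the hydratase and hydroxyacyl-CoA dehydrogenase activities of the same complex, differed by 0.13 in VP (limma's adjusted p = 0.356) and by -0.08 in DLP. Hadha and Hadhb are transcribed away from each other, and the 300-base promoter windows of the pair overlap by 228 bases, so the sequence shown for Hadhb is also largely that of Hadha. Promoter sequence is from RefSeq on GRCm38.p6, 250 bases up to the start of transcription, read 5′ to 3′ on the gene's strand. It is shown for the member called under the diet and for the member next to it in the order of p-values, Acadm, with capitals marking the nuclear receptor half-site AGGTCA on either strand.

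Hadhb, chr5:30155003-30155252, plus strand: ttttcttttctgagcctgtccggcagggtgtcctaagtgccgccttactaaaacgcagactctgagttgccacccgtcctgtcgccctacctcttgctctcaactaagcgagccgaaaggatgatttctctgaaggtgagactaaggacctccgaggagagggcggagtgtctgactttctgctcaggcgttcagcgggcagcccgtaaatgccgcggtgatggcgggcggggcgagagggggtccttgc

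Acadm, chr3:153944644-153944893, minus strand: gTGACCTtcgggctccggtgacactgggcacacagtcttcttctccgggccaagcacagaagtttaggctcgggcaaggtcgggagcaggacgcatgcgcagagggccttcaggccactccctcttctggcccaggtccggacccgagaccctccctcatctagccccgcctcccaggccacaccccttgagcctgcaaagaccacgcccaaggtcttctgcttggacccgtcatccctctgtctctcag

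The Hadhb stretch held no half-site, and that of Acadm held 1, on the reverse strand as TGACCT. Promoters were listed for 30 members, and 5 of these (Cpt1a, Acadm, Acadvl, Echs1 and Cd36), or 16.7%, held the half-site in the 300-base window, against 18.1% of the 27025 genes listed. The paired element of PPAR binding, 2 copies of AGGTCA in the same direction with any 1 base between them, was searched on both strands and found in 0 of the 30 members and in 13 genes overall (0.0481%). A match describes letters in the window and not a bound site.

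Acadm encodes the medium-chain acyl-CoA dehydrogenase, a target of PPARα in liver and heart. In VP its values were 6.10, 6.24, 6.34, 6.51 and 6.41 on HFD, against 5.96, 5.97, 6.06, 5.38 and 6.16 on control diet. The HFD arrays were higher, and the lowest of them fell below the highest control array, control VP 5. The difference of 0.41 ± 0.11 (SE) missed the threshold (limma's adjusted p = 0.0624), with a two-sided exact permutation p of 0.016. Without control VP 4, the lowest array, the difference was 0.28, whereas the call was made without control VP 5 (0.48, limma's adjusted p = 0.0493) or with a filter at the 75th percentile of each array (limma's adjusted p = 0.0453). In DLP it had 5.43, 5.58, 5.49 and 5.46 on HFD, against 5.49, 5.40, 5.37, 5.43 and 5.46 on control diet, a difference of 0.06.

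Among the other dehydrogenases, Acadvl (very long chains) differed by 0.08 in VP and -0.01 in DLP, Acads (short chains) by -0.0016 in VP and -0.10 in DLP, and Acadl (long chains) by -0.24 in VP and -0.14 in DLP. None passed. The carnitine shuttle did not pass in either lobe: Cpt1a, the outer membrane transferase that sets the rate of entry, differed by 0.03 in VP (95% interval -0.18 to 0.25), Cpt2, the inner membrane transferase, by 0.27 (95% interval -0.08 to 0.62), and Slc25a20, the carrier between them, by 0.03 (95% interval -0.24 to 0.30). Pdk4, the pyruvate dehydrogenase kinase that spares glucose, differed by 0.16 in VP (95% interval -0.18 to 0.51) and by -0.05 in DLP. Angptl4, the lipoprotein lipase inhibitor and PPAR target, differed by -0.16 in VP (95% interval -0.55 to 0.22) and by -0.25 in DLP.

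The other members at an unadjusted limma p under 0.05 in VP fell on both sides. Acsl3 and Acsl4, which activate long-chain and polyunsaturated acids, differed by 0.39 and -0.41 there. Acaa1a, the peroxisomal thiolase, differed by 0.40, Ech1, a dienoyl-CoA isomerase, by 0.21, and Acot2, the mitochondrial acyl-CoA thioesterase, by 0.39. Their adjusted p-values by limma ran from 0.153 for Ech1 to 0.219 for Acaa1a, and Acadl stood at 0.274. The 2 probe sets of Acaa1a moved in opposite directions in VP, by 0.40 and -0.34. The other probe sets of Acsl3 differed by 0.05 and 0.10 there, those of Acsl4 by -0.05 and -0.23, and that of Acot2 by 0.21.

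In DLP the smallest p-values belonged to Etfb, Acot2 and Hadh, and none passed. Etfb, the β subunit of the electron transfer flavoprotein, had 6.05, 6.05, 6.08 and 6.02 on HFD, against 6.16, 6.08, 6.16, 6.24 and 6.23 on control diet, with an overlap of 1 array from each group. Its difference was -0.12 ± 0.06 (SE), with limma's adjusted p at 0.87 and a two-sided exact permutation p of 0.024, where 4 against 5 arrays can give no less than 0.016. Acot2 had 3.66, 4.14, 4.38 and 3.64 on HFD, against 4.40, 4.19, 4.25, 4.17 and 4.45 on control diet. HFD DLP 1 and 4 lay below all control arrays, HFD DLP 2 just below them and HFD DLP 3 among them. The Acot2 difference was -0.34 ± 0.16 (SE) in DLP (limma's adjusted p = 0.878), with the opposite sign to the 0.39 in VP, and the difference between the lobes, -0.73, did not pass (limma's adjusted p = 0.371). Hadh, the 3-hydroxyacyl-CoA dehydrogenase of shorter chains, had 7.55, 7.66, 7.69 and 7.60 on HFD, against 7.48, 7.48, 7.46, 7.58 and 7.51 on control diet, a difference of 0.12 ± 0.07 (SE) with overlap at 1 array of each group (limma's adjusted p = 0.941). Its other probe sets differed by -0.47 and 0.03 in DLP.

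Averaged over both lobes with equal weight, no member passed, beside 0.119% of all genes (14 of 11728), 0.0597% higher and 0.0597% lower. The smallest adjusted p among members was that of Hadhb (difference -0.39, limma's adjusted p = 0.129), and 7 members had an unadjusted p under 0.05, against 11.8% of all genes. The test of whether the diet change differed between lobes called no member either, beside 0.00853% of all genes (1 of 11728), with 8 members at an unadjusted p under 0.05, against 8.45% of all genes. The smallest adjusted p was 0.371, for Acot2.

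The dorsolateral lobe was then compared with the ventral lobe within each diet. The lobes differed for most members, as they did for most genes. DLP was lower for the thiolase gene Acaa2, the co-activator gene Ppargc1a, the fatty acid translocase gene Cd36, the carnitine carrier gene Slc25a20 and the isomerase gene Eci1, and higher for the synthetase genes Acsl3 and Acsl4 and the peroxisomal genes Hsd17b4 and Ehhadh. The binding protein gene Fabp3 was also called higher in DLP, but it passed the filter on low values only through its DLP arrays. On HFD 21 of 34 members passed, 8 higher and 13 lower in DLP, beside 52.9% of all genes (26.8% higher and 26.1% lower). On control diet 20 passed, 9 higher and 11 lower, beside 55% of all genes (28.2% higher and 26.8% lower). The members called higher include Fabp3 on both diets and, on control diet, Acaa1a, whose probe sets disagree. The lobes' arrays did not overlap for 17 members on HFD, beside 44.4% of all genes, and for 11 on control diet, beside 39.3%. These shares of the members are near the shares of all genes. The median difference of the members was -0.105 on HFD and -0.051 on control diet, beside 0.004 for all genes on each diet.

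The 2 diets used separate arrays, so the lobe differences of each diet came from different arrays. The tests, however, came from the same fit over all arrays and shared each gene's spread, probe set and filter. Agreement of the calls between the diets is therefore not agreement of independent tests. Of the members called, 17 passed on both diets with the same sign, 7 higher in DLP, Fabp3 among them, and 10 lower. They were 81.0% of the HFD calls and 85.0% of the control diet calls, beside 82.4% and 79.3% for all genes. Ech1, Etfa, Hadh and Hadha passed on HFD alone and Acaa1a, Etfdh and Hadhb on control diet alone. For none of these 7 did the difference between the diets pass, so a change of the lobe difference with diet is not shown. Acadl, Acadvl, Acot1, Angptl4, Cpt1a, Cpt2, Decr1, Etfb, Pdk4 and Ppara passed on neither.

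**Figure D4:**
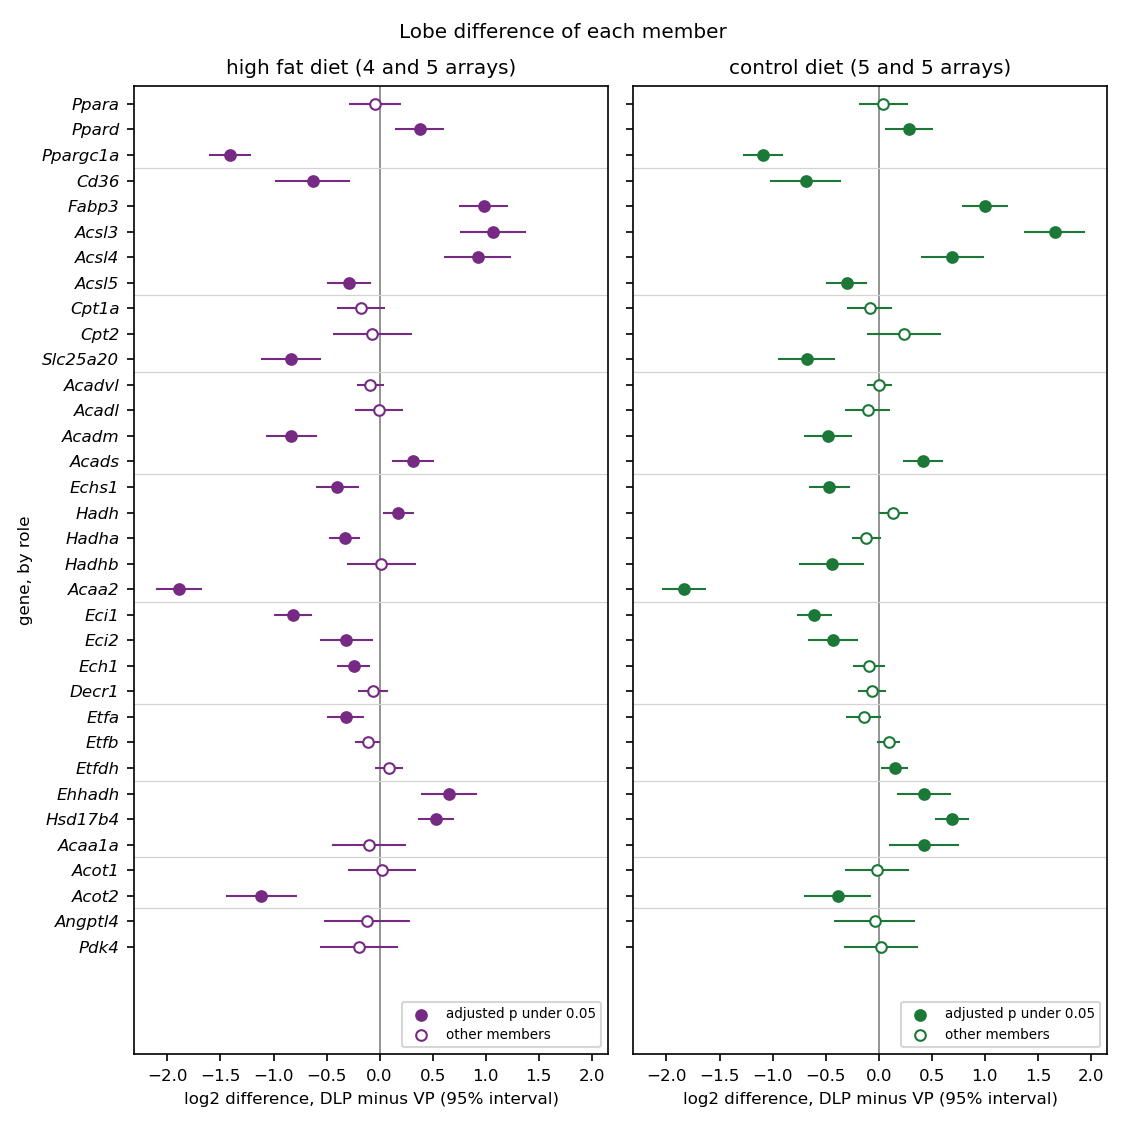
Log2 difference of DLP minus VP for each member, with limma's 95% interval, on HFD (left) and on control diet (right). Filled points passed the adjusted threshold. Acaa2 lies lowest at -1.89 on HFD and -1.84 on control diet, and Acsl3 highest at 1.07 on HFD and 1.66 on control diet.

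Of the regulators, Ppargc1a was 2.66-fold lower in DLP than in VP on HFD and 2.13-fold lower on control diet. Its 9 DLP arrays, listed above, all lay between 2.40 and 2.79, below all 10 VP arrays, which lay between 3.56 and 4.09. The differences were -1.41 ± 0.10 (SE) on HFD (limma's adjusted p = 2.1e-10) and -1.09 ± 0.09 (SE) on control diet (limma's adjusted p = 3.59e-09). These values are those of its brightest probe set, which lay above the array median on all 19 arrays. Its other 4 probe sets passed the filter on low values only through the VP arrays and had DLP means below the median, so they are not set beside it between the lobes. Ppard was higher in DLP by 0.38 on HFD (limma's adjusted p = 0.00841) and by 0.29 on control diet (limma's adjusted p = 0.0283), with arrays of the lobes overlapping. On control diet Ppard missed the threshold without control DLP 5 (difference 0.23, limma's adjusted p = 0.0859) or without control VP 3 (difference 0.23, limma's adjusted p = 0.0875), and under array weights (difference 0.28, limma's adjusted p = 0.0514). An offset of 4 inside the logarithm lowered the Ppard difference to 0.24 on HFD and 0.19 on control diet. Ppara differed by -0.04 on HFD (95% interval -0.29 to 0.20) and by 0.04 on control diet (95% interval -0.19 to 0.28).

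**Figure D5:**
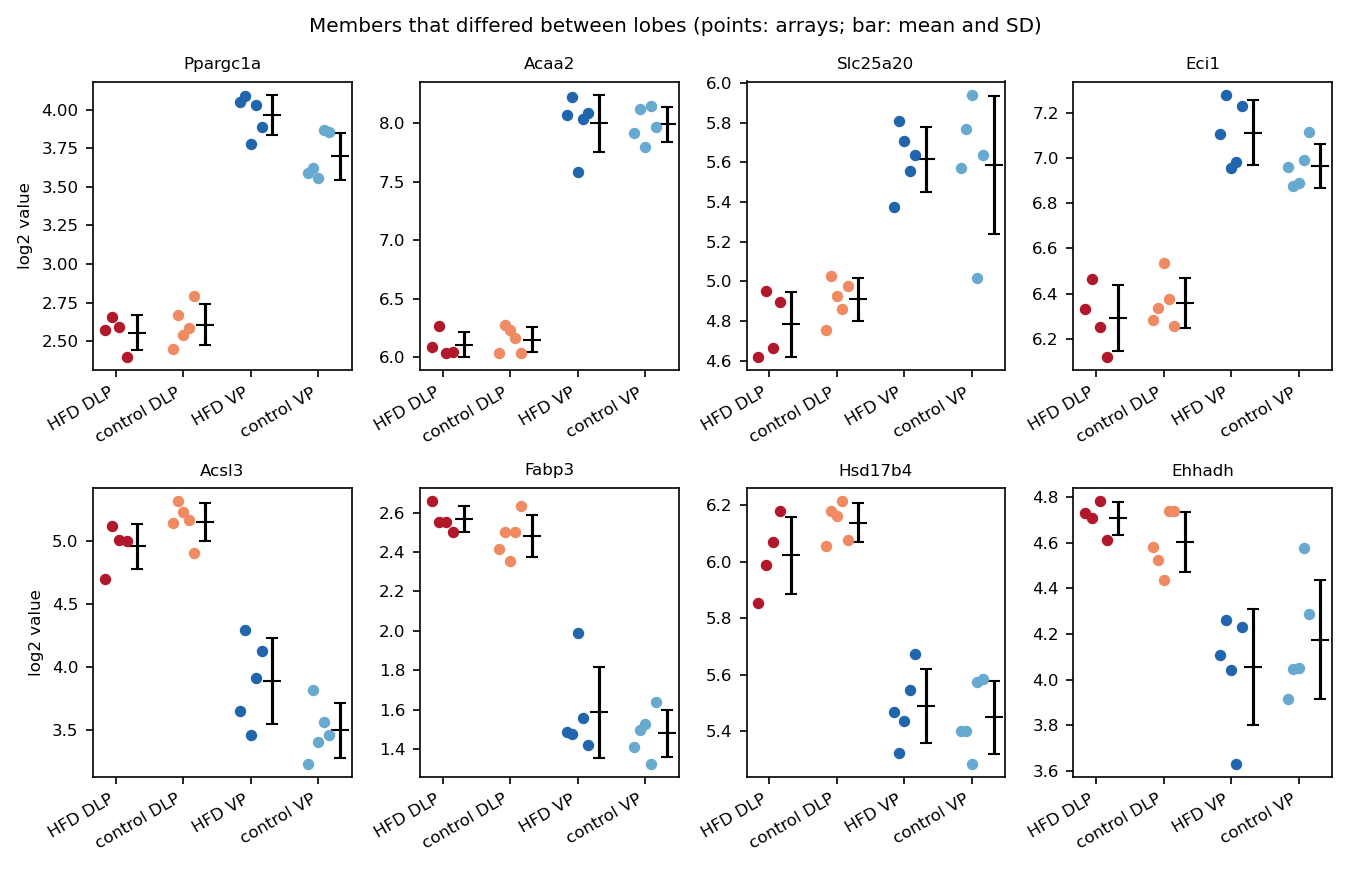
Log2 values on each array, by group, with the mean and SD, for 8 members named for the lobe comparison. In the upper row (Ppargc1a, Acaa2, Slc25a20, Eci1) the DLP groups lie below the VP groups, and in the lower row (Acsl3, Fabp3, Hsd17b4, Ehhadh) they lie above, with an overlap on control diet for Slc25a20 and Ehhadh.

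In uptake, binding and activation, 3 of 5 members were higher and 2 lower in DLP on both diets. The 3 include Fabp3, which passed the filter on low values only through its DLP arrays. Over all genes 26.8% were higher and 26.1% lower on HFD, and 28.2% higher and 26.8% lower on control diet. Acsl3, a synthetase known from lipid droplets, had 4.70, 5.13, 5.01 and 5.00 in HFD DLP, against 3.65, 4.30, 3.46, 3.92 and 4.13 in HFD VP. With the control diet it had 5.15, 5.32, 5.23, 5.17 and 4.91 in DLP, against 3.23, 3.82, 3.41, 3.56 and 3.46 in VP. No DLP array fell into the VP range on either diet. The differences were 1.07 ± 0.15 (SE) on HFD (limma's adjusted p = 4.57e-06) and 1.66 ± 0.14 (SE) on control diet (limma's adjusted p = 4.69e-09).

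Acsl4, which prefers arachidonic acid, had 6.75, 6.84, 6.73 and 6.66 in HFD DLP, against 6.08, 5.36, 5.74, 5.77 and 6.15 in HFD VP. On control diet the values were 6.82, 7.05, 6.93, 7.06 and 6.74 in DLP, against 6.04, 5.96, 6.00, 6.46 and 6.68 in VP. The DLP arrays were higher without overlap on both diets, by 0.93 on HFD (limma's adjusted p = 3.41e-05) and 0.69 on control diet (limma's adjusted p = 0.000367). With its second probe set the Acsl4 difference was 0.39 on HFD and 0.43 on control diet, both still called. Fabp3, a cytosolic fatty acid carrier of heart and muscle, had 2.66, 2.55, 2.55 and 2.50 in HFD DLP, against 1.48, 1.48, 1.99, 1.56 and 1.42 in HFD VP. On control diet Fabp3 had 2.42, 2.50, 2.36, 2.50 and 2.64 in DLP, against 1.41, 1.50, 1.53, 1.33 and 1.64 in VP. The DLP arrays were higher without overlap, by 0.98 on HFD (limma's adjusted p = 3.2e-07) and 1.00 on control diet (limma's adjusted p = 1.02e-07). All VP arrays but HFD VP 3 lay below the array median of 1.85 for Fabp3, where values carry little signal. Fabp3 was thus tested only because its DLP arrays were high, so its call supports nothing beyond these values. The size of its difference is uncertain as well, being 0.57 on each diet with an offset of 4 inside the logarithm.

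Cd36, the fatty acid translocase, had 2.42, 2.79, 2.55 and 2.67 in HFD DLP, against 3.00, 3.11, 3.75, 2.98 and 3.34 in HFD VP. Control diet arrays had 2.94, 2.58, 2.40, 2.87 and 2.65 in DLP, against 3.42, 3.11, 3.31, 3.91 and 3.13 in VP. It was lower in DLP without overlap, by 0.63 on HFD (log2 difference -0.63, limma's adjusted p = 0.00398) and by 0.69 on control diet (log2 difference -0.69, limma's adjusted p = 0.00114). Its highest VP arrays were HFD VP 3 and control VP 4, the pair with the most Lyz2, whose part in the Cd36 level was not tested, and Cd36 was called on both diets without them as well. With the second probe set of Cd36 the difference was -0.41 on HFD and -0.34 on control diet, both still called. Acsl5, a synthetase of mitochondria and endoplasmic reticulum, was lower in DLP by a smaller margin (-0.29 on HFD and -0.30 on control diet).

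The carnitine shuttle and the first steps of the mitochondrial cycle followed no single direction. Slc25a20 had 4.62, 4.95, 4.66 and 4.90 in HFD DLP, against 5.38, 5.81, 5.71, 5.55 and 5.63 in HFD VP. On control diet it had 4.75, 5.03, 4.93, 4.86 and 4.98 in DLP, against 5.57, 5.77, 5.94, 5.02 and 5.64 in VP. The lobes overlapped on control diet at control DLP 2 and control VP 4 alone. The differences were -0.83 on HFD (limma's adjusted p = 3.49e-05) and -0.68 on control diet (limma's adjusted p = 0.000163). Acadm was lower in DLP, with log2 differences of -0.83 on HFD and -0.48 on control diet, and Acads was higher, by 0.31 on HFD and 0.42 on control diet.

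The Cpt1a result depended on the probe set. Its brightest probe set differed by -0.18 on HFD (limma's adjusted p = 0.175) and -0.09 on control diet (limma's adjusted p = 0.495). Another, with the suffix x, was higher in DLP by 0.95 on HFD and 0.79 on control diet (limma's adjusted p = 0.00449 and 0.0104 over all probe sets). The same probe set differed between the diets by -0.54 in DLP and -0.70 in VP, neither past the threshold.

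At the later steps of the mitochondrial cycle most called members were lower in DLP. Acaa2, the mitochondrial thiolase of medium chains, had the largest lobe difference of the 34 members on both diets. It had 6.08, 6.27, 6.04 and 6.05 in HFD DLP, against 8.07, 8.22, 7.58, 8.03 and 8.09 in HFD VP. With the control diet it had 6.04, 6.28, 6.24, 6.16 and 6.04 in DLP, against 7.92, 8.12, 7.79, 8.15 and 7.97 in VP. Every DLP array lay more than 1 log2 unit below every VP array. DLP was 3.71-fold lower on HFD (log2 difference -1.89 ± 0.11 SE, limma's adjusted p = 1.37e-11) and 3.57-fold lower on control diet (-1.84 ± 0.10 SE, limma's adjusted p = 6.89e-12). All 3 of its probe sets were lower in DLP, with differences from -1.98 to -1.71 on HFD and from -2.18 to -1.59 on control diet.

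Eci1, the isomerase that prepares unsaturated chains for the cycle, had 6.33, 6.47, 6.25 and 6.12 in HFD DLP, against 7.10, 7.28, 6.96, 6.98 and 7.23 in HFD VP. On control diet the values were 6.28, 6.34, 6.54, 6.38 and 6.26 in DLP, against 6.96, 6.87, 6.89, 6.99 and 7.11 in VP. Its DLP arrays were lower without overlap, with differences of -0.82 on HFD (limma's adjusted p = 1.03e-07) and -0.61 on control diet (limma's adjusted p = 2.31e-06). Eci2, a second isomerase, and Echs1, the short-chain hydratase, were lower in DLP on both diets. The Eci2 difference was -0.31 on HFD and -0.43 on control diet, and that of Echs1 -0.40 on HFD and -0.47 on control diet. Acot2 was lower too (-1.12 on HFD and -0.39 on control diet). Over the 19 mitochondrial members of the carnitine shuttle, the cycle, its auxiliary enzymes and electron transfer, 2 were higher and 9 lower on HFD, and 2 were higher and 7 lower on control diet. Over all genes 26.8% were higher and 26.1% lower on HFD, and 28.2% higher and 26.8% lower on control diet, and whether these members stand apart from that was not tested.

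The brightest probe set of Hadhb was lower in DLP on control diet (-0.44, limma's adjusted p = 0.0148) and differed by 0.02 on HFD (limma's adjusted p = 0.94). Its second probe set was lower in DLP on both diets, with differences of -0.63 on HFD and -0.60 on control diet (limma's adjusted p = 1.17e-07 and 7.89e-08 over all probe sets). Hadha was lower in DLP on HFD (-0.33, limma's adjusted p = 0.000583) and differed by -0.12 on control diet (limma's adjusted p = 0.146).

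Of the 3 peroxisomal members, Hsd17b4 and Ehhadh were higher in DLP on both diets, and Acaa1a had no settled direction. Hsd17b4, the bifunctional enzyme of very long and branched chains, had 5.85, 5.99, 6.07 and 6.18 in HFD DLP, against 5.47, 5.32, 5.44, 5.55 and 5.67 in HFD VP. Control diet arrays had 6.06, 6.18, 6.16, 6.21 and 6.08 in DLP, against 5.40, 5.40, 5.29, 5.58 and 5.58 in VP. The lobes did not overlap, with differences of 0.53 on HFD (limma's adjusted p = 1.72e-05) and 0.69 on control diet (limma's adjusted p = 2.83e-07).

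Ehhadh, the bifunctional enzyme induced by PPARα in liver, had 4.73, 4.71, 4.78 and 4.61 in HFD DLP, against 4.11, 4.26, 4.04, 3.63 and 4.23 in HFD VP. On control diet it had 4.58, 4.52, 4.44, 4.74 and 4.74 in DLP, against 3.92, 4.05, 4.05, 4.58 and 4.29 in VP. The lobes overlapped on control diet through control VP 4. The differences were 0.65 on HFD (limma's adjusted p = 0.00025) and 0.43 on control diet (limma's adjusted p = 0.00524). Acaa1a was higher in DLP on control diet by 0.42 through its brightest probe set, but its other probe set was lower there, at -0.57 (limma's adjusted p = 0.0279 and 0.00176 over all probe sets), and on HFD its brightest probe set differed by -0.10. Among 14 members with several probe sets past the filter, all probe sets were called in the same direction for 8 on HFD and 8 on control diet, and Acaa1a was the 1 member called in opposite directions. Some of these probe sets, 4 of Ppargc1a and 1 of Acsl3, passed the filter only through the brighter lobe.

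Levels of some cell type markers and 1 of the 2 measures of RNA integrity moved with the lobes. The summed level of the 4 luminal epithelial markers measured ran from 10.91 to 10.96 in HFD DLP and from 11.17 to 11.32 in HFD VP, and 3 of the 4 were lower in DLP on each diet. On control diet the sum ran from 10.70 to 10.88 in DLP and from 11.00 to 11.25 in VP. In DLP on HFD, 4 of 6 smooth muscle, 2 of 4 basal epithelial, 2 of 6 endothelial and 1 of 5 nerve markers were higher. On control diet 4 of 6 smooth muscle, 4 of 4 basal epithelial, 1 of 6 endothelial and 5 of 5 nerve markers were higher. Of the nerve markers, 4 lay below the array median on all VP arrays. These 4 passed the filter on low values only through DLP arrays, so their calls support nothing beyond these values. On each diet 3 of 6 macrophage markers were lower. Calls were mixed on each diet for 7 striated muscle markers (3 higher, 2 lower). They were also mixed for 4 prostate secretory (2 higher, 1 lower) and 3 adipocyte markers (1 higher, 1 lower). Among these, the muscle marker Ckm lay below the array median on all VP arrays and Myh2 on all DLP arrays. The secretory marker Tgm4 lay below it on most VP arrays. Each of them passed the filter on low values only through the lobe where it was high, so its call supports nothing further. Over all genes 26.8% were higher and 26.1% lower on HFD, and 28.2% higher and 26.8% lower on control diet. The Gapdh difference of 3′ minus 5′ probe sets ran from -0.54 to -0.35 in HFD DLP, -0.49 to -0.36 in control DLP, -0.41 to -0.19 in HFD VP and -0.26 to -0.03 in control VP. The same measure for Actb overlapped between lobes, from 1.35 to 1.52 in HFD DLP, 1.40 to 1.75 in control DLP, 1.17 to 1.64 in HFD VP and 1.28 to 1.51 in control VP. Seminal vesicle markers were not called between lobes but were uneven between arrays. Their sum reached 6.7 in HFD VP and 5.04 in HFD DLP, with Svs4 at 5.755 on HFD VP 2 and 4.195 on HFD DLP 1. The sum stayed at or below 2.68 in control VP and 3.68 in control DLP. The secretory marker Spink1 ran from 3.5 to 11.6 in HFD DLP and from 6.3 to 11.8 in control DLP. The part of these marker and RNA differences in the members' lobe differences was not tested.

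No marker tested on these lists passed for diet in either lobe. The 5 nerve markers, however, had a median difference of -1.026 in DLP, where the arrays were uneven. Their sum ran from 3.97 to 4.9 in HFD DLP and from 3.72 to 7.57 in control DLP. The adipocyte sum ran from 4.94 to 5.13 in HFD DLP, 4.68 to 5.76 in control DLP, 5.02 to 5.41 in HFD VP and 5.37 to 6.04 in control VP. Of the fat markers, Adipoq, Lep, Retn and Cidec lay below the array median on nearly all arrays, with Adipoq at 1.91 on control VP 4 as its highest. Fabp4 and Lipe lay above the median on all arrays, from 3.62 to 5.43 and from 2.38 to 3.27. The fat marker Car3 ran from 1.34 to 2.18 in HFD DLP, 2.00 to 4.05 in control DLP, 1.46 to 1.99 in HFD VP and 2.21 to 3.79 in control VP. The part of fat or nerve in the diet differences was not tested.

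Other genes of the same pathways were taken in lists chosen with earlier results of these data known. They had few calls for diet and many between lobes, as all genes did. For HFD against control in VP, 1 gene passed of 15 peroxisomal and omega oxidation genes, 0 of 18 other mitochondrial, ketone body and fuel entry genes, 0 of 17 other PPAR targets, 1 of 22 PPAR partners and co-regulators, and 1 of 16 genes of mitochondrial content, beside 1.11% of all genes. The 3 were Scp2, a peroxisomal thiolase and sterol carrier (-0.62, limma's adjusted p = 0.0348), Nrip1, a co-repressor of nuclear receptors (-0.44, limma's adjusted p = 0.0401), and Cycs, cytochrome c (-0.38, limma's adjusted p = 0.0339). Scp2 had a mean of 7.42 ± 0.33 in HFD VP and 8.05 ± 0.26 in control VP (SD, n = 5 each). Nrip1 had 7.11 ± 0.06 in HFD VP and 7.55 ± 0.15 in control VP, and Cycs 7.32 ± 0.17 in HFD VP and 7.70 ± 0.10 in control VP. With 1 array left out, Scp2 lost its call in 7 of 19 fits, Nrip1 in 11 and Cycs in 7, and without HFD VP 3 and control VP 4 together all 3 lost it (limma's adjusted p = 0.0942, 0.0561 and 0.0931). With the second probe set of each, none was called, at -0.02 for Scp2, -0.54 for Nrip1 and -0.25 for Cycs (limma's adjusted p = 0.959, 0.0899 and 0.136). The perilipin gene Plin4, a PPAR target of lipid droplets, differed by 0.38 in VP (limma's adjusted p = 0.0612) and 0.26 in DLP (limma's adjusted p = 0.817). In DLP none of these 5 lists had a gene past the threshold.

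Between the lobes the same 5 lists had calls in both directions, beside 26.8% of all genes higher and 26.1% lower on HFD and 28.2% higher and 26.8% lower on control diet. Whether any list differs from these shares was not tested. Of the 15 peroxisomal genes, 2 were higher and 4 lower in DLP on HFD, and 3 higher and 7 lower on control diet. Of the 18 other mitochondrial genes, 5 were higher and 5 lower on HFD, and 3 higher and 7 lower on control diet. The 17 PPAR targets had 6 higher and 6 lower on HFD, and 5 higher and 6 lower on control diet. The 22 PPAR partners had 4 higher and 7 lower on HFD, and 5 higher and 7 lower on control diet. The 16 mitochondrial content genes had 6 higher and 3 lower on HFD, and 7 higher and 3 lower on control diet. Pex11a, a peroxisome division gene, had a mean of 2.38 ± 0.24 in HFD DLP and 4.48 ± 0.20 in HFD VP, and 2.53 ± 0.37 in control DLP and 4.56 ± 0.21 in control VP. Phyh, the phytanic acid hydroxylase, went the other way, with 8.60 ± 0.15 in HFD DLP and 6.55 ± 0.16 in HFD VP, and 8.37 ± 0.16 in control DLP and 6.59 ± 0.38 in control VP. Peroxisomal genes outside the given list were thus not all higher in DLP. Of the PPAR targets, Fabp5, Lpl and Plin4 were higher in DLP (2.036, 1.395 and 0.975 on HFD, 1.8, 1.252 and 1.097 on control diet). The PPAR target Txnip was lower (-1.434 on HFD and -1.155 on control diet). Among the partners, Nrip1 was lower in DLP (-1.84 on HFD and -2.06 on control diet), as was Prkaa2, a catalytic subunit of AMP kinase (-1.61 on HFD and -1.67 on control diet). Rxrg, a retinoid X receptor that pairs with PPARs, and Slc27a2, a fatty acid transporter and very long-chain synthetase, had DLP means below the array median and passed the filter on low values only through the VP arrays, so their values are a description. The mean of Rxrg was 0.86 in HFD DLP and 3.96 in HFD VP, and 1.20 in control DLP and 3.82 in control VP. The mean of Slc27a2 was 0.72 in HFD DLP and 4.34 in HFD VP, and 0.75 in control DLP and 3.81 in control VP. Of the mitochondrial content genes, Sdha and Idh3a were lower in DLP on both diets (-0.92 and -1.11 on HFD, -0.85 and -1.07 on control diet), whereas Cycs and Mdh2 were higher on both (0.95 and 0.60 on HFD, 0.49 and 0.68 on control diet). With their second probe sets the differences of Sdha, Idh3a and Cycs were smaller. That of Sdha was -0.14 on HFD, no longer called (limma's adjusted p = 0.0801), and -0.16 on control diet, that of Idh3a -0.35 on HFD and -0.27 on control diet, and that of Cycs 0.23 on HFD.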

How the data were processed

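Total RNA from mouse prostate lobes was measured on 19 one-colour 3′ expression arrays, and the values used were those the authors deposited in the series' value table. The deposited values are on a log10 scale, as inferred from the hybridization controls, since no source used here states the base, and run from 0 to 3.99 with a median of 0.555 on every array. The submitters' processing notes name MAS5. All arrays hold the same set of sorted values, so each value reflects the rank of a probe set within the array, and shifts common to most genes cannot be seen. Further steps of theirs are not given in the sources used here, nor is their order. The controls' steps were 0.5, 0.62 and 0.99, against 0.52, 0.7 and 0.6 for log10 of nominal amounts, and an offset of 1 inside the logarithm was assumed. Folds rest on this base, and p-values do not.

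Values were converted to log2 with no further normalization. Of 45101 probe sets, 64 controls were left out, 34958 carried 1 gene symbol in the platform annotation and 932 several. Symbols of 34754 were updated by gene identifier with RefSeq names on GRCm38.p6. A probe set was kept when above its own array's median on at least 4 arrays, and each gene was represented by its brightest probe set on average. The tests were run with R 4.3.3 and limma 3.58.1, using lmFit and eBayes with trend, on 4 group means over all 19 arrays, two-sided, with Benjamini-Hochberg adjustment over 11728 genes. Single members also had a two-sided exact permutation test. Tests were checked on simulated data. The number of arrays limits the precision.

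The named members were those past the threshold for diet, the 3 with the smallest p for diet in each lobe, the 5 with the largest lobe difference in each direction among those called on control diet, and Ppara, Ppard and Ppargc1a. The members, lists and rules were chosen with earlier results of these data known. Alternatives covered the probe set taken, the filter, the offset, the prior on the variance, weights per array or lobe, single lobes or diets, cyclic loess, the threshold, each array left out and a replicate block. The labels do not say that same-numbered arrays share a mouse. Between the lobes of a diet, where a mouse could be shared, correlations of same-numbered arrays ran from -0.066 to 0.189. The VP array of the same number was the best match for HFD DLP 1, 2 and 4 and control DLP 2 and 4. It was not for HFD DLP 3 and control DLP 1, 3 and 5. Between the diets of a lobe, where no mouse is shared, the correlations ran from -0.154 to 0.459. Whether the numbers mark mice is not settled by this, and they were not used as pairs in the main fits.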

Additional observations from a re-analysis of the deposited data

Results flagged for a closer look

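Among 68 combinations of a member and a group, 2 held an array far from the rest of its group, where chance alone marks about 1 group in 20. Acadm, the medium-chain acyl-CoA dehydrogenase gene, was at 5.38 on control VP 4, below the other control VP arrays, of which the nearest was at 5.96 and the farthest at 6.15. Fabp3, the fatty acid carrier gene, was at 1.99 on HFD VP 3, above the other HFD VP arrays, of which the nearest was at 1.56 and the farthest at 1.42. These are the arrays on which the macrophage marker Lyz2 was highest. The part of that in the 2 values was not tested.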

How the results depend on the processing

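The number of members called for diet in VP was 1. It was 0 with no low-value filter, the mean of probe sets, no mean-dependent prior, array weights, 1 weight per lobe, VP arrays alone, the second highest probe set, no x-suffixed probe sets, or without control VP 4 and HFD VP 3 together, and 2 at a threshold of 0.1 or under a filter set at the 75th percentile, where Acadm joined Hadhb. With 1 array left out it ran from 0 to 1. The last 2 probe set choices were added after seeing the data. No member was called for diet in DLP, on average or in the difference between lobes under any alternative run. The lobe counts ran from 18 to 22 on HFD and from 17 to 21 on control diet over all alternatives. Of all genes, 130 were called for diet in VP, against 78 with no filter, 209 at the 75th percentile, 47 with the mean of probe sets, 83 with no mean-dependent prior, 47 with array weights, 20 with 1 weight per lobe, 0 with VP arrays alone, 321 at a threshold of 0.1 and 71 with the second highest probe set. With VP arrays alone the smallest limma adjusted p was 0.0507.

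With the replicate number as a block, 1 member was called for diet in VP (Hadhb), 0 in DLP, 19 between lobes on control diet and 21 on HFD, so the block moved no count of members by over 1.5 times. All genes called for diet in VP numbered 93 under it. Same-numbered arrays did not all correlate best with each other.

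Another probe set turned 2 called differences. Hadhb for diet in VP, at -0.625, was 0.038 with the second highest probe set and 0.038 with no x-suffixed ones. Acss1, an acetyl-CoA synthetase gene outside the given list, was at -0.785 between lobes on control diet (limma's adjusted p = 2.37e-09), and 0.036 with its second probe set. That second probe set carries the suffix x and lay above the array median on only 2 DLP and 3 VP arrays, so it holds little signal. The other signs that turned were those of differences that were not called. For diet in DLP, Hadh was -0.103 with the mean of probe sets. Ppargc1a was 0.015 with that mean, 0.035 with the second probe set and -0.091 to 0.001 with 1 array left out. Ppard was 0.018 with the replicate block and -0.075 to 0.083 with 1 array left out, and Ppara was -0.014 to 0.144. Between lobes on HFD, Ppara was 0.103 with the mean of probe sets, 0.174 with the second probe set and -0.131 to 0.011 with 1 array left out, and on control diet -0.029 to 0.084. The cause of these shifts was not tested. The limits are the small groups, an inferred log scale, ranks that hide shared shifts, and probe sets that may match other transcripts.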
